A study of Mus musculus with 2 samples.

Results

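The genes that open replication origins, build the replication fork, supply it with deoxynucleotides and package the new DNA were compared between cultured mouse cardiomyocytes (MCMs) with and without knockdown of Ppp2r5d, a regulatory B subunit of protein phosphatase 2A. The list held 43 genes of 37074 gene names on the array, and these genes were covered by 91 of 56605 probes. They were chosen by name and function, with earlier results of these data known. All 43 were measured on both arrays. Of them, 35 had a lower value after Ppp2r5d knockdown (81.4%, beside 45.9% of all genes measured on both arrays) and 8 a higher one. The 5 that were at least 2-fold lower, beside 1.07% of all genes, were Tk1, Chaf1b, Uhrf1, Pole and Cdc45. At least 1.5-fold higher were 0, beside 3.36% of all genes.

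MCMs were bought as cells and passaged in DMEM with fetal bovine serum. One group received siRNA-NC, a negative control siRNA, and the other siRNA-Ppp2r5d, both by lipid transfection. Both groups were moved to medium without glucose 48 h after transfection, and total RNA was collected at 64 h, so the control cells had also been transfected and deprived of glucose. Each group was 1 culture whose RNA was labelled and hybridized to 1 one-colour array, and both arrays lay on 1 slide and were read in 1 scan. Differences between cultures and effects of the siRNA cannot be told apart, and no p-value was computed. The values come from RNA of whole cultures, in which fewer cells in S phase and less RNA per cell cannot be told apart.

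Replication starts when the origin recognition complex (ORC) marks origins and the MCM helicase is loaded there. The kinase made of Cdc7 and Dbf4, with Cdc45 and the GINS complex, then turns the loaded helicase into a moving fork, behind which the polymerases copy both strands. Deoxynucleotides come from ribonucleotide reductase, thymidylate synthase and thymidine kinase, and new DNA is wrapped by chromatin assembly factors and methylated again on the new strand. Many of these genes are transcribed around S phase under E2F factors, and adult cardiomyocytes, which have largely left the cell cycle, express most of them at low levels.

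Intensity is the background-corrected brightness of a spot as deposited, and it is not scaled between arrays. The log2 fold change is siRNA-Ppp2r5d minus siRNA-NC after each array's 75th percentile, an intensity of 593 with siRNA-NC and 519 with siRNA-Ppp2r5d, was subtracted on the log2 scale, so a gene with slightly lower intensity can have a log2 fold change near or above 0. It is the mean over the gene's probes that stood well above background on both arrays. Of 59305 non-control spots, 35544 stood well above background with siRNA-NC and 35174 with siRNA-Ppp2r5d, and 0 were saturated. The scanner's own error model gave a probe's log2 fold change a median error of 0.20, different probes of 1 gene differed by a median SD of 0.12, and neither covers the spread between cultures. Ppp2r5d itself had an intensity of 4701 with siRNA-NC and 676 with siRNA-Ppp2r5d, a log2 fold change of -2.61, so the labels and the targeted gene go together.

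The cardiomyocyte label was set against marker genes. Of 13 cardiomyocyte markers, 7 were measured on both arrays and 2 (Myh6 and Ryr2) on 1 array only. The other 4 (Actn2, Myl2, Myl7 and Pln) were not well above background on either. Summed over the 7, intensity was 9681 with siRNA-NC and 8993 with siRNA-Ppp2r5d, most of it Actc1 (6443 and 5268). Ttn, Nkx2-5 and Tnnt2 were at 1110, 1078 and 858 with siRNA-NC. Tnni3, Myh7 and Mb were dimmer, at 54.1, 48.1 and 89.8 with siRNA-NC. Of the 7, 5 had a log2 fold change above 0 and 2 below. The median log2 fold change of the 7 was 0.086. Of 10 fibroblast markers 8 were measured, with sums of 327884 and 310715 and a median of 0.036, while Thy1 and Tcf21 were dim on both arrays. The 4 smooth muscle markers summed to 141925 and 129727, most of it Acta2 (133436 and 115480). Their median was 0.41, but 2 were higher and 2 lower. Cnn1 was at 2.41 (288 and 1341) and Tagln at 0.85 (8174 and 12887), while Acta2 was at -0.020 and Myh11 at -0.38 (27.1 and 18.2). Cnn1 had the highest log2 fold change of all the markers measured on both arrays. Of 4 endothelial markers only Pecam1 was measured on both arrays, at 55.6 and 41.4 (-0.23), with Cdh5 and Kdr dim on both. Of 4 leukocyte markers 3 were measured, at 3667 and 2322 in sum and a median of -0.68, with Adgre1 dim on both. Cd68 was at -0.77 and Lyz2 at -0.68, while Ptprc was at 0.13 (888 and 848). The part of these cells in the results below was not tested.

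Members as a whole had a median log2 fold change of -0.30, with quartiles of -0.57 and -0.044. Over all 20350 genes measured on both arrays the median was 0.026. The 35 lower members were 81.4% of the list, beside 45.9% of all genes. The same 45.9% stands beside the counts of lower genes in each functional group below. The 5 members that were at least 2-fold lower stood beside 1.07% of all genes, and the 9 that were at least 1.5-fold lower (20.9% of the list) beside 4.65%. In the other direction 0 members passed either fold, beside 0.885% of all genes at 2-fold and 3.36% at 1.5-fold. The 9 genes were Tk1, Chaf1b, Uhrf1, Pole, Cdc45, Prim1, Lig1, Gins2 and Dna2. Among the members closest to these limits, Cdc45 was 2.07-fold lower and Prim1 1.67-fold lower, and Dna2 had a log2 fold change of -0.66 and Chaf1a of -0.58.

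**Figure D1:**
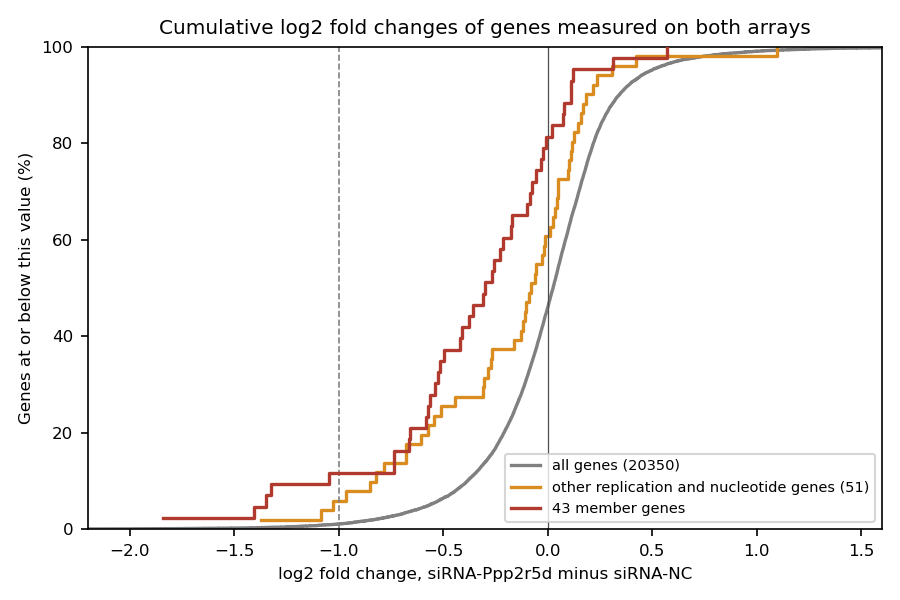
Cumulative share of genes (vertical axis, percent) at or below each log2 fold change (horizontal axis, siRNA-Ppp2r5d minus siRNA-NC) for the 43 genes, 51 other genes of the pathways and all 20350 genes measured on both arrays, with a dashed line at 2-fold lower. The line of the 43 genes lies to the left of the line of all genes over most of its length, with medians of -0.30 and 0.026.

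The direction did not come from a few probes. Of the members' 91 probes, 79 were well above background on both arrays, 1 on a single array and 11 on neither. Of the 79, 61 were lower and 7 were at least 2-fold lower. Among probes designed to a RefSeq mRNA 48 of 61 were lower, and among other probes of these genes 13 of 18. The same shares over all probes were not computed. Of all genes 45.9% were lower and 1.07% at least 2-fold lower. Several probes read the same gene, so the probe counts in part repeat the gene counts. For 24 genes several probes entered the value. In 15 of them every probe was lower, in 3 (Orc2, Dbf4 and Rfc3) every probe was higher, and in 6 the probes pointed both ways. The other 19 genes rest on 1 probe each, and 15 of the 43 lay within the scanner's error of 0.

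**Figure D2:**
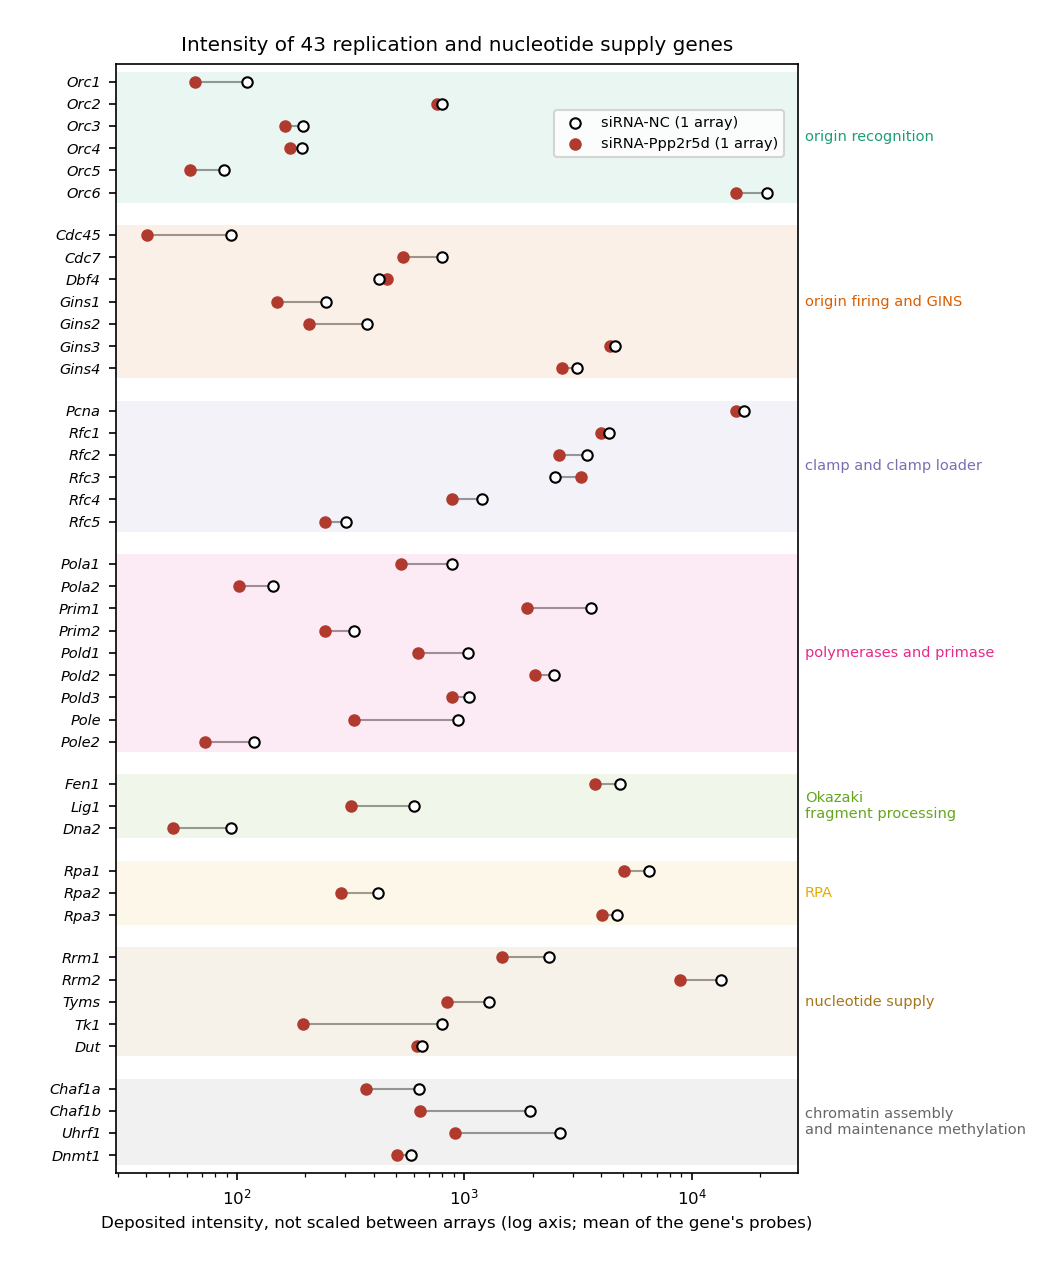
Intensity of each gene as deposited (horizontal log axis, mean of the gene's probes on the log2 scale) on the siRNA-NC array (open circles) and the siRNA-Ppp2r5d array (filled circles), by function, with 1 array per condition and so no error bars. Tk1, Chaf1b, Uhrf1, Pole and Cdc45 have the longest lines, and Dbf4 and Rfc3 are the 2 genes whose intensity was higher on the siRNA-Ppp2r5d array.

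**Figure D3:**
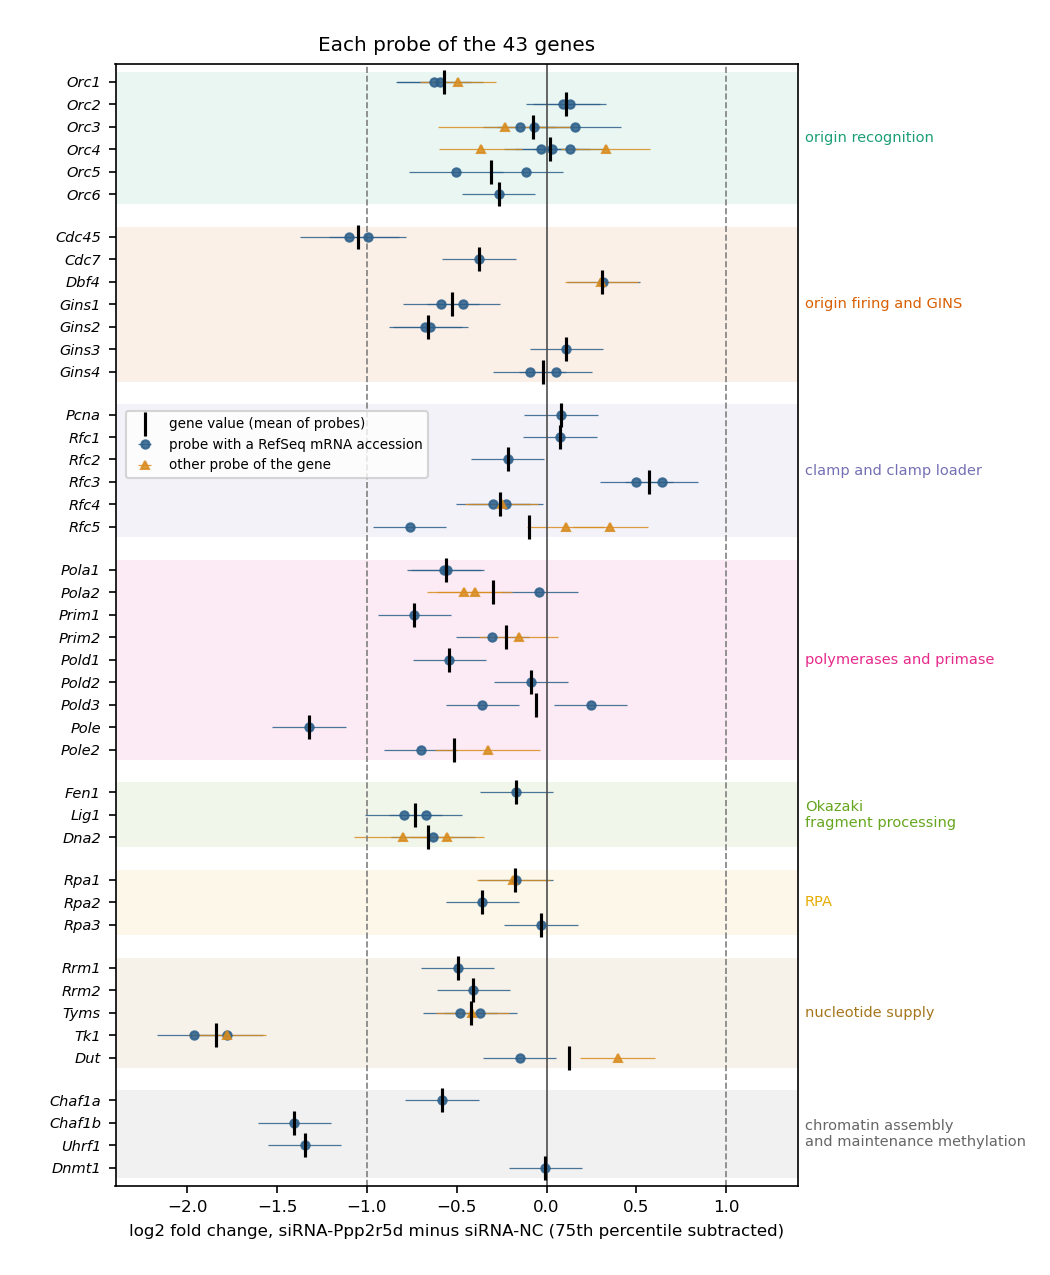
Log2 fold change (horizontal axis, siRNA-Ppp2r5d minus siRNA-NC) of every probe measured on both arrays, with bars for the scanner's error of 1 probe and a vertical tick for the gene's mean. The 3 probes of Tk1 lie together between -1.97 and -1.78, while the probes of Rfc5, Dut and Pold3 lie on both sides of 0.

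Origin recognition genes differed little. ORC is the ring that binds origins and recruits the helicase loader, and 4 of its 6 subunits were lower, with a median log2 fold change of -0.17. Orc1, the subunit whose level follows the cell cycle, had the lowest value in the main setting. Its 3 probes had intensities of 61.9, 165 and 133 with siRNA-NC and 35.9, 93.1 and 82.9 with siRNA-Ppp2r5d, each lower, and its log2 fold change was -0.57. Under normexp correction it was -0.26, level with Orc6 at -0.27, and without the filter on dim probes Orc5 came near it, at -0.48. In the main setting the other 5 subunits ranged from -0.31 for Orc5 to 0.11 for Orc2. Orc6 had an intensity of 21398 and 15568, a log2 fold change of -0.27. Orc4 was nearest to 0, at 193 and 171 and a log2 fold change of 0.019, and its 5 probes spread from -0.37 to 0.33.

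At origin firing, Cdc45 and some GINS subunits were lower and others were not. Cdc45, the helicase cofactor that joins MCM and GINS into the active helicase, was read by 2 probes at different places of the transcript. They are shown because the 2-fold call rests on them; the array's annotation gives the intervals on build mm9, the first of which spans an intron, and which exons they lie in was not analysed here.
Cdc45 (chr16:18793399-18794880, minus strand): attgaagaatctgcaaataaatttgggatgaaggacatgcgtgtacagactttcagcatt
Cdc45 (chr16:18807449-18807508, minus strand): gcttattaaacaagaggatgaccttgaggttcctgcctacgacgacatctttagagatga
The first probe had an intensity of 151 with siRNA-NC and 66.1 with siRNA-Ppp2r5d, and the second 59.2 and 24.2. Both were lower by similar amounts, and the gene had a log2 fold change of -1.05. In the GINS complex, which has 4 subunits, Gins2 was read by probes at 167 and 840 with siRNA-NC and at 93.1 and 460 with siRNA-Ppp2r5d, a log2 fold change of -0.66. Gins1 was at -0.53, while Gins3 was at 0.11 (4608 and 4352) and Gins4 at -0.021 (3126 and 2696). The complex therefore split into a lower pair and a pair within the scanner's error of 0. The Cdc7 kinase had a log2 fold change of -0.38 (800 and 539), and its activating subunit Dbf4 went the other way, at 0.31, with probes at 501 and 354 with siRNA-NC and 545 and 382 with siRNA-Ppp2r5d. Without the filter on dim probes Cdc7 was at -0.60 and Dbf4 at 0.078. After scaling to spike-in probes Dbf4 was at 0.091, and both of these Dbf4 values lay within the scanner's error of 0. This group had a median of -0.38, with 5 of 7 genes lower.

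The sliding clamp and its loader showed no common direction. PCNA is the ring that holds the polymerases on DNA, and its gene is a widely used marker of dividing cells. It was read by 1 probe, shown because it is the best known gene of the list and was among those that did not move with the rest.
Pcna (chr2:132075420-132075557, minus strand): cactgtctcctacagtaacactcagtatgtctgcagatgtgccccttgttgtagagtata
Its intensity was 16959 with siRNA-NC and 15687 with siRNA-Ppp2r5d, a log2 fold change of 0.080. Rfc1 to Rfc5 encode the loader that opens the ring. Rfc1, the large subunit, was nearly level at 4327 and 3991, a log2 fold change of 0.075. Rfc3 was the highest of the 43 genes, with probes at 1331 and 4709 with siRNA-NC and at 1647 and 6430 with siRNA-Ppp2r5d and a log2 fold change of 0.57. Rfc2 was at -0.22 and Rfc4 at -0.26. Rfc5 depended on the probe, since the RefSeq probe had a log2 fold change of -0.76 (2612 and 1348) and 2 others 0.36 (122 and 137) and 0.11 (84.8 and 79.9). The group had 3 of 6 genes lower and a median of -0.012.

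All 9 genes of the polymerases and primase were lower, with a median log2 fold change of -0.51. DNA polymerase epsilon copies the leading strand, and Pole, its catalytic subunit, had an intensity of 938 with siRNA-NC and 328 with siRNA-Ppp2r5d, a log2 fold change of -1.32 on 1 probe, with its other 2 probes dim on both arrays. Pole2, an accessory subunit of the same enzyme, was at -0.51 (118 and 72.5). Prim1, which makes the RNA primer, had 3592 and 1887, a log2 fold change of -0.74, and its partner Prim2 -0.23. Polymerase alpha extends the primer, and its catalytic subunit Pola1 was at -0.56, with probes at 1416 and 554 with siRNA-NC and 845 and 326 with siRNA-Ppp2r5d. Its partner Pola2 was at -0.30, from a RefSeq probe at -0.041 and other probes at -0.46 and -0.40. Polymerase delta copies the lagging strand, and here Pold1, the catalytic subunit, was at -0.54 (1042 and 627), with Pold2 at -0.086 and Pold3 at -0.057 (1045 and 880), the latter from probes at -0.36 and 0.24.

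In each of these 4 enzymes the catalytic subunit had the lowest value. The catalytic subunits had a median log2 fold change of -0.65. The 8 accessory subunits, with Pold4 (-0.081), Pole3 (0.024) and Pole4 (0.095) added from the wider list, had a median of -0.084. The same order was seen under the 7 alternatives that can reorder genes, while the others shift all genes alike or repeat another setting. The subunits were set side by side after their values were seen. The gap was narrowest in polymerase alpha, where Pola1 and Pola2 differed by little more than the scanner's error of 1 probe. With the brightest probe of each gene they were at -0.55 and -0.46, closer together than that error, so their order is not resolved there.

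**Figure D4:**
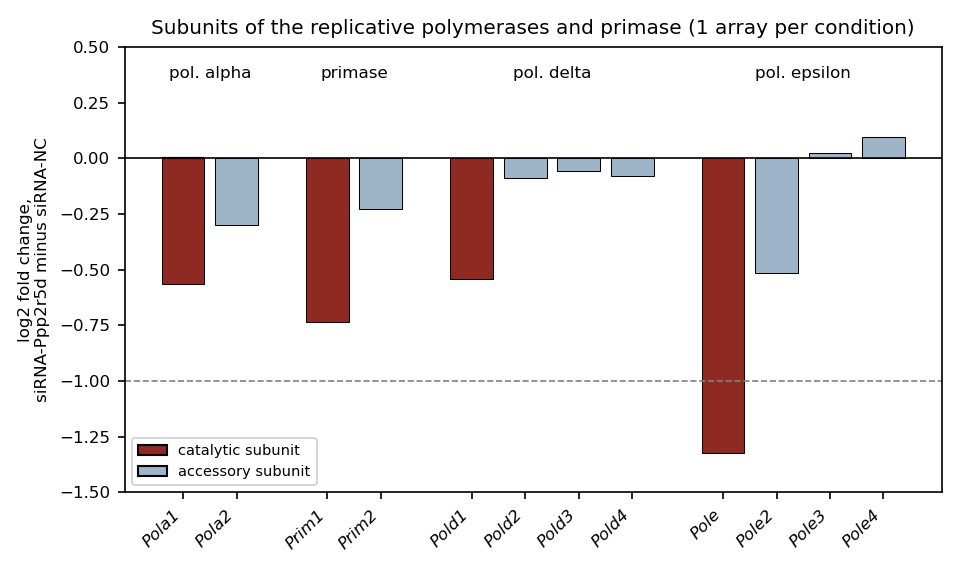
Log2 fold change (vertical axis, siRNA-Ppp2r5d minus siRNA-NC) of each subunit of the replicative polymerases and primase, with catalytic subunits in dark red and accessory subunits in blue, and a dashed line at 2-fold lower. Pole, at -1.32, is the only bar past the line, and each dark bar reaches lower than the blue bars of its enzyme.

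Okazaki fragments, the short pieces of the lagging strand, are trimmed by Fen1 and Dna2 and sealed by Lig1. Lig1 had probes at 2434 and 148 with siRNA-NC and at 1337 and 74.6 with siRNA-Ppp2r5d, a log2 fold change of -0.73. Dna2 was read by 3 probes, at 72.7, 240 and 47.7 with siRNA-NC and at 41.1, 143 and 24.0 with siRNA-Ppp2r5d, all lower, with a log2 fold change of -0.66. Fen1, the main flap nuclease, differed less, at 4818 and 3751 and -0.17. The 3 genes had a median of -0.66.

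RPA coats unwound DNA as a complex of 3 different subunits. Rpa1 had probes at 4879 and 8651 with siRNA-NC and 3756 and 6731 with siRNA-Ppp2r5d, a log2 fold change of -0.18. Rpa2 was at 419 and 286, a log2 fold change of -0.36. Rpa3 was at 4677 and 4007, or -0.031. All 3 were lower, but Rpa1 and Rpa3 lay within the scanner's error of 0, and the median was -0.18.

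Among the nucleotide supply genes, Tk1 was the lowest of the 43. Thymidine kinase 1 salvages thymidine in dividing cells, and its RNA and protein are tied to S phase. Its 3 measured probes had intensities of 1555, 212 and 1547 with siRNA-NC and 348, 54.2 and 394 with siRNA-Ppp2r5d, each lower on the second array, while 2 further probes were dim on both. The log2 fold change was -1.84, or 3.58-fold lower, and 17 of 20350 genes had a lower value. Rrm1, the large subunit of ribonucleotide reductase, was at 2349 and 1460 (-0.49), and Rrm2, its small S-phase subunit, at 13382 and 8826 (-0.41). The alternative small subunit Rrm2b, which serves resting cells, was at 0.31 (115 and 125). Tyms, which makes thymidylate, had probes at 2595, 539 and 1506 with siRNA-NC and 1758, 354 and 944 with siRNA-Ppp2r5d, all lower, and a log2 fold change of -0.42. Dut, which removes dUTP, had no clear direction, since its RefSeq probe was at -0.15 (3460 and 2729) and its other probe at 0.40 (122 and 141), for a gene value of 0.12. The group had a median of -0.42, with 4 of 5 genes lower.

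Chromatin assembly and maintenance methylation had a median of -0.96, the lowest of the 8 groups except without the filter on dim probes, where it was -0.64 beside -0.66 for Okazaki fragment processing. Its 4 genes ranged widely. Chaf1b, a subunit of the CAF-1 complex that places histones behind the fork, had an intensity of 1934 with siRNA-NC and 639 with siRNA-Ppp2r5d, a log2 fold change of -1.40, or 2.65-fold lower. Its partner Chaf1a was at 632 and 369, a log2 fold change of -0.58, and Rbbp4, the subunit CAF-1 shares with other complexes, at -0.014. Uhrf1 recognizes hemimethylated DNA and brings Dnmt1 to it. It was at 2637 and 908, a log2 fold change of -1.35, or 2.54-fold lower, and its second probe, well above background with siRNA-NC only, was at least 1.52-fold lower. Dnmt1, the methyltransferase itself, was at 582 and 507, a log2 fold change of -0.0065. The recruiter and the enzyme of maintenance methylation thus had very different values in these arrays. All 4 genes rest on 1 probe each.

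Promoter sequence was looked at because E2F factors act on many of these genes. RefSeq promoter windows (build GRCm38.p6, 250 bases before to 50 after a transcript's start) were available for 37 of the 43 genes, all but Gins1, Gins2, Gins4, Rfc2, Prim2 and Pole. The E2F motif was searched as TTTCCCGC, TTTCGCGC, TTTGCCGC or TTTGGCGC on both strands. It was in the windows of 11 members (29.7%), against 704 of 27025 genes (2.61%), 2.26% of 32851 windows, and 471 of 11203 genes that were measured here and had a window (4.20%). The 11 were Orc1, Orc3, Gins3, Rfc3, Pola1, Pold1, Pold3, Pole2, Lig1, Uhrf1 and Dnmt1. The CCAAT box bound by NF-Y was in 54.1% of members and 41.1% of genes, and the CHR element TTTGAA in 18.9% and 20.2%, nearer to the shares of all genes. A match is a description of these letters and not a bound site.

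Members were considered whose match ends no later than 30 bases after the start, wherever it lies before it. Of these, the 4 with the lowest and the 2 with the highest log2 fold change are shown. The following stretches, 65 to 98 bases long, were cut from their windows around the match and are not whole windows. Each runs 5′ to 3′ in the direction of the gene, and capitals mark the E2F motif or its reverse complement.
Uhrf1 (chr17:56304083-56304180, plus strand): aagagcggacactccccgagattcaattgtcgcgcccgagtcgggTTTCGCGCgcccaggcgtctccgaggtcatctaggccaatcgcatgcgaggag
Orc1 (chr4:108579382-108579479, plus strand): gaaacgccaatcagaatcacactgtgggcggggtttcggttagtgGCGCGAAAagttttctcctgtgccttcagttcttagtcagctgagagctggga
Pola1 (chrX:93632241-93632338, minus strand): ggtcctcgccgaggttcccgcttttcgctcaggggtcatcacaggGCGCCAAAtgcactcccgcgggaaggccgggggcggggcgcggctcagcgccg
Pole2 (chr12:69228161-69228225, minus strand): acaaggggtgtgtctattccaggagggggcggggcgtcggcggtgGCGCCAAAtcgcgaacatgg
Gins3 (chr8:95633473-95633570, plus strand): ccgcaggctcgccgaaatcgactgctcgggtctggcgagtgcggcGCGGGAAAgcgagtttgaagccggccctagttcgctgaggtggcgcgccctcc
Rfc3 (chr5:151651179-151651263, minus strand): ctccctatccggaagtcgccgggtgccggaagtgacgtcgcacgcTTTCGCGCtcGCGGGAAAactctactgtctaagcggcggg
Uhrf1, at -1.35, and Rfc3, at 0.57, both held the motif TTTCGCGC, Rfc3 with a second match beside it. Members with an E2F match had a median log2 fold change of -0.51, with 9 of 11 lower, and those without -0.28, with 20 of 26 lower. Of all genes measured on both arrays 45.9% were lower. Over all measured genes with a window these medians were -0.031 and 0.021. The other 2 motifs went the other way among the members. Medians with and without a match were -0.22 and -0.31 for the CCAAT box and -0.086 and -0.33 for the CHR element. Whether any motif plays a part was not tested. Of the 5 members that were at least 2-fold lower, Uhrf1 had a match, Tk1, Chaf1b and Cdc45 had a window without one, and Pole had no window.

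Other genes of the same pathways were taken from a list of 52, of which 51 were measured on both arrays, while Clspn was well above background on 1 array and gave no fold. Of the 51, 31 were lower (60.8%, beside 45.9% of all genes), with a median log2 fold change of -0.081. At least 2-fold lower were 3, beside 1.07% of all genes, and 1 was at least 2-fold higher, beside 0.885%. Timeless, a fork protection protein, was at 594 and 200, a log2 fold change of -1.37. Top2a, which untangles replicated DNA, was at 757 and 312 (-1.09). Chtf18, the large subunit of an alternative clamp loader, was at 392 and 168 (-1.03). Chtf8, a small subunit of that same loader, was the gene that was higher, at 8015 and 15014, or 2.14-fold higher, on 1 probe. Dscc1, another subunit of that loader, was at 406 and 198 (-0.85), on 2 probes with an SD of 0.80 between them. Subunits of this loader therefore had values on opposite sides of 0, with Chtf8 higher and Chtf18 and Dscc1 lower.

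The wider list differed by function. Of 21 fork and accessory genes 15 were lower (71.4%, beside 45.9% of all genes), with a median of -0.16. All 5 chromatin genes were lower, beside the same 45.9% of all genes, with a median of -0.30. Of 25 genes of general nucleotide synthesis and salvage 11 were lower (44%, near the share of all genes), with a median of 0.034. They ranged from -0.61 for Dck, deoxycytidine kinase, to 0.42 for Cad, which starts pyrimidine synthesis. Umps (0.013), Rbbp4 (-0.014) and Paics (-0.019) were the 3 nearest to no change. Among the genes of nucleotide supply, Tk1, Rrm1, Rrm2 and Tyms were lower while the purine and pyrimidine pathways that every cell uses had no common direction. The genes of the MCM helicase (Mcm2 to Mcm7) and of its loading (Cdc6 and Cdt1) were also all lower, beside 45.9% of all genes. Their median was -0.86. They ranged from -1.94 for Mcm5 to -0.073 for Cdt1, which lay within the scanner's error of 0.

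In the main setting 36 of 43 members lay below the median of all genes. Of the 11 alternatives, 7 could change this count, and it was 35 with the brightest probe of each gene and 36 in the other 6. Scaling to spike-in probes moved the median of all genes to -0.19 and put 41 members below 0, all but Dbf4 and Rfc3, together with 80.1% of all genes. As this shifts every gene alike, the members' median relative to that of all genes stayed -0.33. Pcna was higher in the main setting but below 0 under quantile normalization, cyclic loess, the authors' values and spike-in scaling. Gins4 was above 0 under scaling to the median of detected probes and with the brightest probe, and Dnmt1 under that scaling and under normexp correction. Tk1 and Uhrf1 were at least 2-fold lower in all 12 settings. Cdc45 was just short of 2-fold under quantile normalization, the authors' values and the brightest probe, and was -0.44 under normexp correction, which left 4 members at least 2-fold lower in each of these settings. Chaf1b and Pole were -0.70 and -0.74 when their dim probes were included, which left 3.

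**Figure D5:**
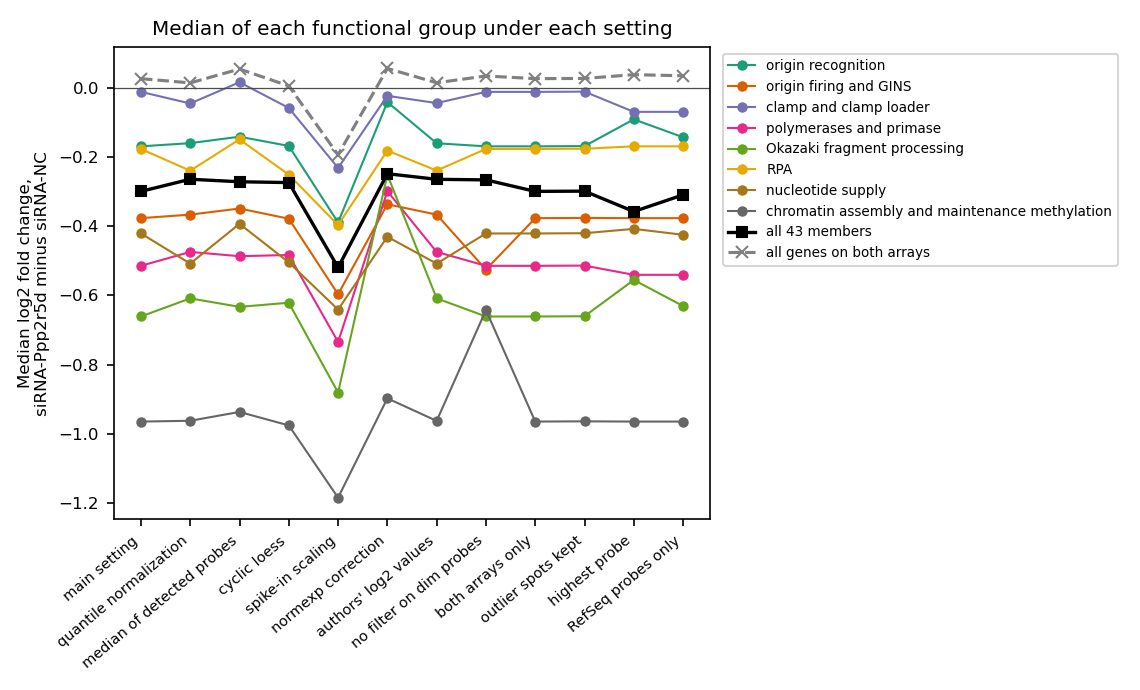
Median log2 fold change (vertical axis, siRNA-Ppp2r5d minus siRNA-NC) of each functional group, of all 43 genes and of all genes measured, under the main setting and 11 alternatives (horizontal axis). The 43 genes lie below all genes under each setting, the clamp and its loader lie nearest to all genes under most of them, and spike-in scaling lowers every line.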

How the data were processed

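RNA of 1 culture of MCMs with siRNA-NC and 1 with siRNA-Ppp2r5d was hybridized to Agilent one-colour arrays. The authors deposited each spot's intensity from Agilent Feature Extraction 10.7.1.1, corrected for background and spatial trend within an array and not scaled between arrays, and a table of log2 values for 56605 probes, which equalled quantile-normalized log2 intensities (median absolute difference 1.4e-05). Control spots and spots flagged as outliers (126 and 95) were left out, spots of a probe averaged, the 75th percentile subtracted, and probes well above background on both arrays averaged per gene. For genes seen on 1 array only, a bound was taken against the lowest signal well above background (14.9 with siRNA-NC, 13.5 with siRNA-Ppp2r5d). No test was possible with 1 array per condition. The call was 2-fold, the fold of the study's methods. A change of setting was read against the median SD between probes of a gene, 0.12.

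The members, the gene lists and the named genes were chosen with earlier results of these data known. Intensities on both arrays were printed for members changed at least 1.5-fold, Pcna, Orc1, the RPA and Rrm genes and the member nearest to 0 in each group, other pathway genes past 2-fold and the 3 nearest to 0. Other genes were named after their values were seen. Alternatives were quantile, cyclic loess, median and spike-in scaling, normexp (offset 50), the authors' values, 2 other filters, outliers kept, the brightest probe, 1.5-fold and 4-fold thresholds and, added after the data were seen, RefSeq probes only. The steps were tested on simulated data. Python 3.11.15, NumPy 2.4.6, pandas 2.3.3, matplotlib 3.10.9, R 4.3.3 and limma 3.58.1 were used.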

Additional observations from a re-analysis of the deposited data

How the results depend on the processing

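The 2-fold call was lost for Cdc45 under quantile normalization, the authors' values, the brightest probe and normexp correction (4 genes left in each) and for Chaf1b and Pole without the filter on dim probes, while Tk1 and Uhrf1 kept it in every setting, and no gene past 2-fold changed direction. Spike-in scaling shifted all genes and gave medians of -0.52 for the 43 genes, -0.39 for origin recognition, -0.60 for origin firing and GINS, -0.23 for clamp and loader, -0.73 for polymerases and primase, -0.88 for Okazaki fragment processing, -0.40 for RPA, -0.64 for nucleotide supply and -1.18 for chromatin, with 47 of the other pathway genes lower at a median of -0.30. Normexp correction gave -0.042 for origin recognition, -0.30 for polymerases and primase and -0.25 for Okazaki fragment processing. Without that filter 3 of the 43 genes were at least 2-fold lower, and the medians were -0.53 for origin firing and GINS and -0.64 for chromatin, which was then not the lowest group. Lower by at least 1.5-fold were 9, and by at least 4-fold 0. The clamp and loader median, -0.012, was above 0 under scaling to the median of detected probes. Single genes moved by more than 0.12 in 43 cases under spike-in scaling, 10 under normexp correction, 9 without the filter, 6 with the brightest probe, 4 with RefSeq probes only and 0 under the other alternatives. The causes were not tested. Intensities of the measured Cdc45 probes with siRNA-Ppp2r5d were 66.1 and 24.2, beside a lowest signal well above background of 13.5. No paired analysis was possible because each condition has 1 array, and for the same reason no replicate could be left out.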
